A study of Mus musculus with 26 samples.

Results

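Serum amyloid genes and 7 further acute phase genes were followed through mouse liver. The 10 genes, Saa1, Saa2, Saa3, Lcn2, Hp, Hpx, Orm1, Orm2, Apcs and Steap4, were taken by name, through their Ensembl identifiers, from a table of estimated counts for 55642 genes. All 10 had 1 row each, and all 10 passed the filter on low counts. The table held 26 liver libraries in 4 groups. Hom CDAHFD libraries came from mice with a homozygous Mtarc1 knockout (n = 8), and Het CDAHFD libraries from mice with a heterozygous Mtarc1 knockout (n = 7). WT CDAHFD libraries came from wildtype mice (n = 6), and all 3 of these groups had received CDAHFD for 2 weeks. CDAHFD lacks choline, is rich in fat and supplies amino acids in place of protein, and it brings on fatty liver with inflammation in mice. WT chow libraries came from wildtype mice on control chow (n = 5). No knockout on chow was among the samples, so a genotype difference that exists without the diet and an altered response to the diet cannot be told apart. The labels state neither the strain, age or sex of the mice nor how the Mtarc1 alleles were made, and they do not say whether each library is a separate animal, so p-values measure the spread between these libraries.

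The acute phase response is the change in liver protein output that follows inflammation or injury. Interleukin-6 family cytokines signal in hepatocytes through gp130, JAK kinases and STAT3, while interleukin-1 and tumour necrosis factor act through NF-kB, and C/EBP factors act at the same promoters. Saa1 and Saa2 are the classical inducible serum amyloid A genes, whose proteins ride on high-density lipoprotein. Saa3 is made by macrophages and adipocytes as well as by hepatocytes, and Lcn2 is made by neutrophils as well as by hepatocytes. Fatty liver with inflammation is a setting in which several of these genes are known to be active.

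Mtarc1, the targeted gene, was called lower in Hom than in WT CDAHFD livers (-2.27 ± 0.15, edgeR adjusted p = 8.02e-11), while the Het difference from WT CDAHFD (-0.55 ± 0.15, edgeR adjusted p = 0.569) did not pass and those groups overlapped. Mtarc1 lay between 33.4 and 65.3 CPM (estimated counts per M counts of a library) in Hom livers, 112 and 208 CPM in Het livers, 193 and 291 CPM in WT CDAHFD livers and 264 and 361 CPM in WT chow livers. The library size behind CPM is scaled by TMM, the trimmed mean method of edgeR. Libraries held between 19.73 and 29.91 M estimated counts. The library numbers fall into 2 series, called here the 9000 series (9 libraries) and the 11000 series (17 libraries). The 9000 series holds 2 Hom, 3 Het, 3 WT CDAHFD and 1 WT chow libraries. The labels do not call these series batches, and values within the 11000 series are given beside diet calls that were lost there. Together the 10 genes took a median of 1.07% of all counts in Hom livers, 1.18% in Het livers, 1.17% in WT CDAHFD livers and 0.609% in WT chow livers.

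On CDAHFD, 8 of the 10 genes rose in wildtype liver. They were Lcn2 (17.1-fold), Saa2 (12.4-fold), Saa1 (10.7-fold), Saa3 (6.39-fold), Steap4 (3.05-fold), Orm2 (2.95-fold), Hpx (1.72-fold) and Hp (1.62-fold). Over all 17104 genes tested, edgeR called 27.1% in this comparison, 14.8% higher and 12.2% lower, at a Benjamini-Hochberg adjusted p under 0.05. The median log2 fold change of the 10 genes was 1.58, against -0.01 over all genes. Apcs and Orm1 did not pass. On the same diet, edgeR called 0 of the 10 genes between Hom and WT CDAHFD livers, Het and WT CDAHFD livers, or Hom and Het livers. In bulk liver, fewer cells of a type and less RNA per cell cannot be told apart, and the same holds for more of either.

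**Figure D1:**
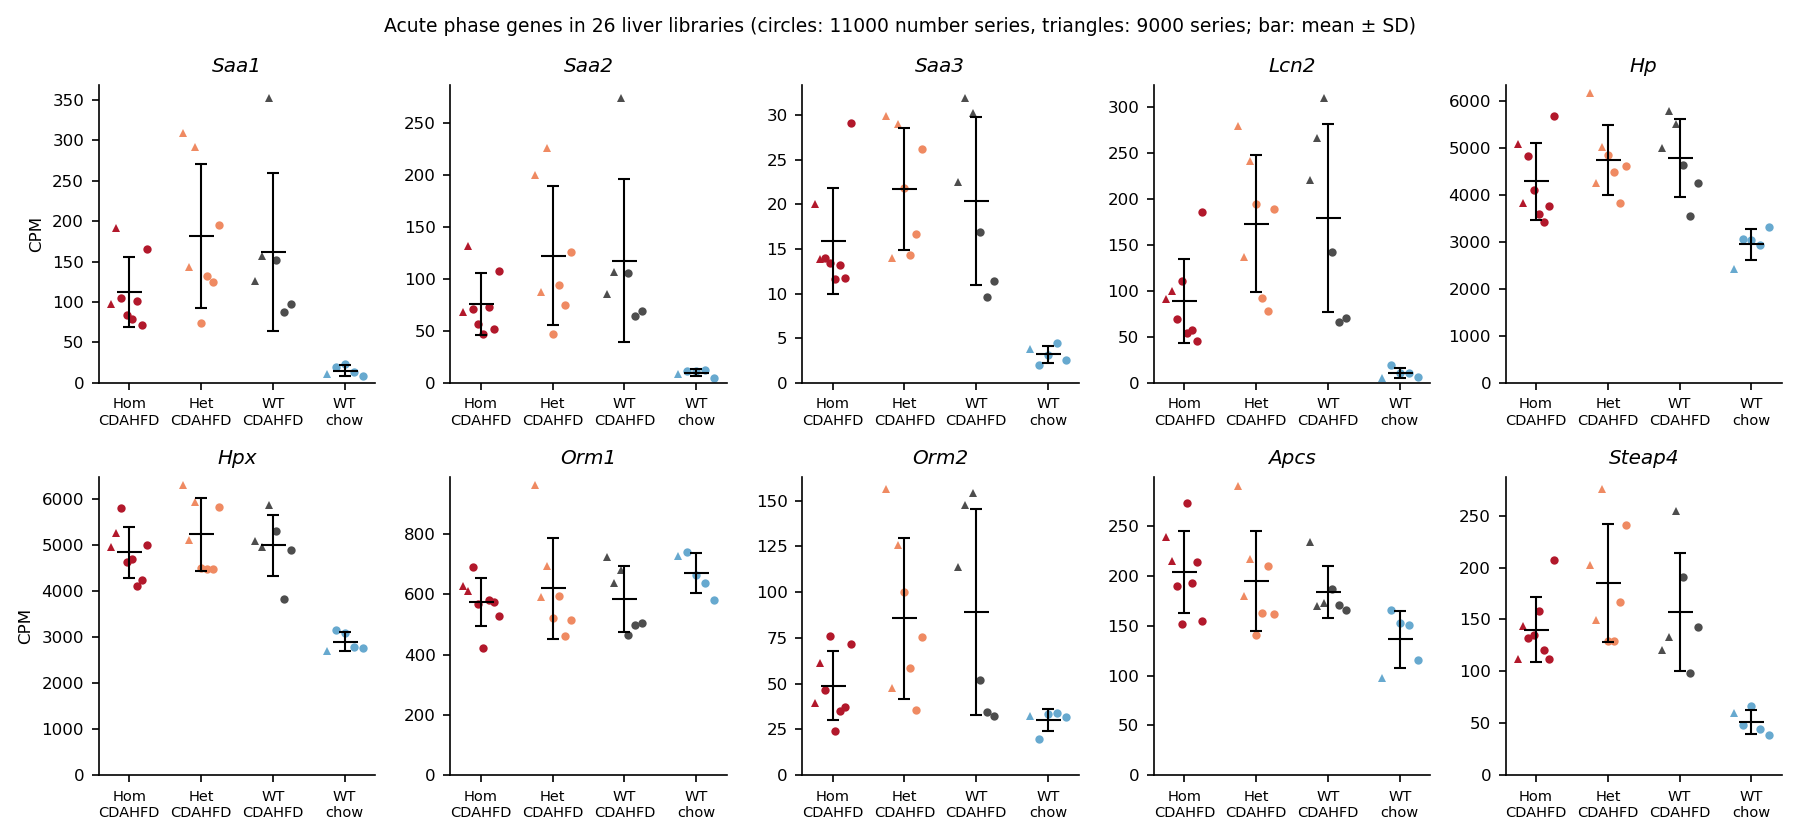
CPM (vertical axes, linear, from 0) of the 10 acute phase genes in every liver library, with the groups Hom CDAHFD, Het CDAHFD, WT CDAHFD and WT chow from left to right. Circles are libraries of the 11000 series, triangles libraries of the 9000 series, and bars the mean ± SD. For Saa1, Saa2, Saa3, Lcn2, Hp, Hpx and Steap4 every CDAHFD library lies above all 5 chow libraries, and Orm1 shows no such step. The share of all genes with such a step was not counted.

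The serum amyloid genes stand next to one another in the genome. The windows upstream of Saa3, Saa4, Saa1 and Saa2 span 36.2 kb of chromosome 7 in the mouse build GRCm38.p6, from which RefSeq's promoter sequences were taken for 8 of the 10 genes. The 250 bases before the start site are shown for the 4 Saa genes because 3 of them rose on the diet and Saa4, the constitutive family member, did not pass there. Capitals mark matches to TTNNGNAA, a C/EBP-type motif, and GGGNNNNNCC, an NF-kB-type motif, on either strand. Neighbouring matches of Saa1 run together.
Saa1: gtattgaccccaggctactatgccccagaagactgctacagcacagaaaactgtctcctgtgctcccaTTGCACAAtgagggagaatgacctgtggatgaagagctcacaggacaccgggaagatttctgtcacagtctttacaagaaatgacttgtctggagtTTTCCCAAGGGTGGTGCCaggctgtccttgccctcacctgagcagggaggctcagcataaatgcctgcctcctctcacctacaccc
Saa2: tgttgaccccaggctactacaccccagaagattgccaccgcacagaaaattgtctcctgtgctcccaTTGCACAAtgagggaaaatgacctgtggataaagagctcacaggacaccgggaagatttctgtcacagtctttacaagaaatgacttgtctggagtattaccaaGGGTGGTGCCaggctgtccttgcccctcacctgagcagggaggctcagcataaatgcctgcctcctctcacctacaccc
Saa3: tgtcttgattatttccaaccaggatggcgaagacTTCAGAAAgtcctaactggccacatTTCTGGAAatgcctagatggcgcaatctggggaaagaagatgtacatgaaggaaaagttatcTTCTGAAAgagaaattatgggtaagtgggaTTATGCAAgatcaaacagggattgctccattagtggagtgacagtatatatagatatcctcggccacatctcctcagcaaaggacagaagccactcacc
Saa4: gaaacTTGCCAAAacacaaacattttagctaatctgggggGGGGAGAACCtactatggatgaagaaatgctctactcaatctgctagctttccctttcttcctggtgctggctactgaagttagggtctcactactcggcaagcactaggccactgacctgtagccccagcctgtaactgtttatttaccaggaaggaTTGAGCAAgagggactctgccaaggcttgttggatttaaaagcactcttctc
The windows lie at chr7:46742981-46743230 (minus strand), chr7:46751583-46751832 (plus strand), chr7:46715677-46715926 (minus strand) and chr7:46732604-46732853 (minus strand). Aligned over 251 columns, the Saa1 and Saa2 windows were identical in 94.8%, against 48.5% for Saa1 and Saa3 and 46.3% for Saa1 and Saa4. The windows of Saa1 and Lcn2, which is not a Saa gene, were identical in 52.2%. Saa1 and Saa2 share the NF-kB-type match GGGTGGTGCC, and the C/EBP-type match directly before it in Saa1 is not in the Saa2 window. Saa3 held 4 C/EBP-type matches and no NF-kB-type match. Such short motifs are common: of 32851 mouse promoter windows of this length, 36.8% held the first and 45.8% the second. A match describes letters and is not a measured site.

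Saa1 (ENSMUSG00000074115.6) ranged from 71.5 to 192 CPM in Hom livers (median 99.0), from 73.4 to 309 CPM in Het livers (median 144) and from 87.1 to 352 CPM in WT CDAHFD livers (median 139). The WT chow livers held 11.3, 19.7, 23.7, 13.1 and 7.76 CPM. Every CDAHFD liver was thus above every chow liver, and the 3 diet groups overlapped. The log2 fold change was 3.42 ± 0.43 (SE) between WT CDAHFD and WT chow livers, with an edgeR adjusted p of 3.68e-06. Against the same chow livers it was 2.89 ± 0.41 for Hom and 3.59 ± 0.43 for Het livers. WT CDAHFD replicate 3 stood apart at 352 CPM, and without it the diet estimate was 3.03, still called.

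Saa2 (ENSMUSG00000057465.6), the twin of Saa1, had 47.0 to 132 CPM in Hom livers (median 69.2), 46.9 to 226 CPM in Het livers (median 94.3) and 64.6 to 274 CPM in WT CDAHFD livers (median 95.7). Its chow values were 8.19, 11.3, 11.1, 12.6 and 4.23 CPM, again below every CDAHFD liver. The diet change was 3.63 ± 0.46 on the log2 scale (edgeR adjusted p = 4.25e-06). The CPM of Saa1 exceeded that of Saa2 in all 26 libraries, by a ratio (not per length) of 1.39 to 1.69 in Hom livers, 1.29 to 1.68 in Het livers, 1.29 to 1.47 in WT CDAHFD livers and 1.04 to 2.12 in WT chow livers. The log2 ratio differed by -0.17 between WT CDAHFD and WT chow and did not pass (two-sided exact permutation p = 0.351, n = 6 and 5; adjusted p = 0.399 over 12 ratio tests). Reads of the pair are hard to assign, since 30.1% of the 31-base words of the Saa1 transcript also occur in another gene, mostly Saa2. Counted as one, the summed pair gave a log2 fold change of 3.51 (edgeR adjusted p = 3.03e-06) for the diet.

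Saa3 (ENSMUSG00000040026.9) had the lowest level per length of the 10 genes. It lay at 11.6 to 29.1 CPM in Hom livers (median 13.7), 14.04 to 29.9 CPM in Het livers (median 21.8) and 9.66 to 31.9 CPM in WT CDAHFD livers (median 19.7). The chow livers held 3.82, 2.00, 3.15, 4.42 and 2.59 CPM, all below the lowest CDAHFD liver. Its diet change of 2.67 ± 0.34 (edgeR adjusted p = 3.87e-06) was a 6.39-fold rise. The 3 WT CDAHFD libraries of the 9000 series held 22.5 to 31.9 CPM and the 3 of the 11000 series 9.66 to 16.9 CPM, while the Hom livers of the 2 series overlapped, at 13.8 to 20.1 and 11.6 to 29.1 CPM. The diet change within the 11000 series was 2.06 ± 0.34 (adjusted p = 0.00111). Summed macrophage and Kupffer cell markers, 331 to 525 CPM in WT CDAHFD livers and 194 to 321 CPM in WT chow livers, moved the same way, and their part in the Saa3 result was not tested.

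Saa4, whose protein is constitutive on lipoprotein, had a smaller diet estimate. It had 155 to 300.2 CPM in Hom livers, 114 to 347 CPM in Het livers, 142 to 273 CPM in WT CDAHFD livers and 124 to 185 CPM in WT chow livers. The diet estimate of 0.41 ± 0.22 did not pass (edgeR adjusted p = 0.18), though it passed when libraries were scaled by their totals alone (0.64, adjusted p = 0.0108). Between Het and WT chow livers Saa4 rose by 0.64 ± 0.22 (edgeR adjusted p = 0.0225). The Het livers held 237 to 347 CPM in the 9000 series and 114 to 238 CPM in the 11000 series. The WT chow livers of the 11000 series held 124 to 185 CPM. The ratio of Saa1 to Saa4, measured inside each library and so free of scaling, was 0.835 ± 0.442 in WT CDAHFD livers and 0.101 ± 0.036 in WT chow livers (SD). This ratio was chosen after the values were seen, with Saa1 called on the diet and Saa4 not. Its log2 value differed by 2.97 (two-sided exact permutation p = 0.00217, the smallest that 6 against 5 allow; adjusted p = 0.026 over 12 ratio tests). In the 11000 series the difference was 2.33 (exact permutation p = 0.0286, the smallest that 3 against 4 allow; adjusted p = 0.114).

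Lcn2 (ENSMUSG00000026822.15), which encodes the siderophore-binding lipocalin 2, rose on the diet by a log2 change near that of Saa2, and their difference was not tested. Lcn2 stood at 4.09 ± 0.51 and Saa2 at 3.63 ± 0.46 over all libraries, and at 2.98 and 3.03 within the 11000 series. Lcn2 ranged from 45.0 to 186 CPM in Hom livers (median 80.3), from 78.6 to 279 CPM in Het livers (median 190) and from 66.1 to 309 CPM in WT CDAHFD livers (median 181). WT chow livers held 5.34, 19.4, 10.7, 10.7 and 6.34 CPM. No CDAHFD liver reached down to the chow range. The change between WT CDAHFD and WT chow passed (edgeR adjusted p = 3.67e-06), and the log2 change was 4.05 ± 0.50 between Het and WT chow and 3.09 ± 0.47 between Hom and WT chow. The WT diet change within the 11000 series was 2.98 ± 0.52 (adjusted p = 0.00199) and within the 9000 series, with 1 chow library, it was 5.63 ± 0.50 (adjusted p = 0.00303). Neutrophil markers summed to 6.83 to 24.4 CPM in WT CDAHFD livers and 4.48 to 6.88 CPM in WT chow livers. Among them Csf3r alone had a mean of 7.66 CPM in WT CDAHFD and 3.71 CPM in WT chow livers. The part of these markers in the Lcn2 result was not tested. Its upstream window, at chr2:32387740-32387989 on the minus strand, holds 1 match to each of these motifs and is shown for that pair, in the same capitals.
Lcn2: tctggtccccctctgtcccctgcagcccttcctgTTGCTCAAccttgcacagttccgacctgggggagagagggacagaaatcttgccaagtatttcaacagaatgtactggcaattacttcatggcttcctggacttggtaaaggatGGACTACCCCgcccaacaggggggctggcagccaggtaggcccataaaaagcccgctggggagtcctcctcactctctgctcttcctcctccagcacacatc

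Hp and Hpx encode haptoglobin, which binds free haemoglobin, and hemopexin, which binds free haem. Both were already abundant on chow and rose by smaller folds than Saa1, Saa2 and Saa3. Hp (ENSMUSG00000031722.11) had 3428 to 5692 CPM in Hom livers (median 3962), 3830.0 to 6172 CPM in Het livers (median 4628) and 3559 to 5805 CPM in WT CDAHFD livers (median 4824). WT chow livers held 2425, 3071, 3044, 2928 and 3322 CPM. All CDAHFD livers lay above all chow livers, and the diet change was 0.70 ± 0.15 on the log2 scale (edgeR adjusted p = 0.000859). It was 0.43 ± 0.17 within the 11000 series and no longer passed there (adjusted p = 0.104). Hpx (ENSMUSG00000030895.10) had 4116 to 5818 CPM in Hom livers (median 4839), 4479 to 6313 CPM in Het livers (median 5116) and 3832 to 5879 CPM in WT CDAHFD livers (median 5029). Its chow livers held 2700.0, 3151, 3096, 2777 and 2770.0 CPM, a narrow band below all 21 CDAHFD livers. The diet change was 0.79 ± 0.12 (edgeR adjusted p = 3.02e-05). The log2 ratio of Hpx to Hp differed by 0.09 between WT CDAHFD and WT chow and did not pass (two-sided exact permutation p = 0.366, n = 6 and 5; adjusted p = 0.399 over 12 ratio tests).

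Orm1 and Orm2 encode orosomucoids, acid glycoproteins of plasma that bind drugs and lipids. They differed in level and in what they did on the diet. Orm1 (ENSMUSG00000039196.3) lay at 422 to 692 CPM in Hom livers (median 577), 461 to 963 CPM in Het livers (median 591) and 464 to 723 CPM in WT CDAHFD livers (median 570.2). Its chow livers held 726, 741, 665, 639 and 580 CPM, inside the range of all 21 CDAHFD livers. The diet estimate was -0.20 ± 0.16 and not called (edgeR adjusted p = 0.37), and it turned to 0.04 when libraries were scaled by their totals alone.

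Orm2 (ENSMUSG00000061540.4) was the minor gene of the pair and varied more. It ranged from 23.97 to 75.9 CPM in Hom livers (median 43.0), from 35.8 to 156 CPM in Het livers (median 75.6) and from 32.1 to 154 CPM in WT CDAHFD livers (median 82.9). WT chow livers held 32.2, 19.6, 33.6, 34.0 and 31.5 CPM. All but 1 of the WT CDAHFD livers were above every chow liver. The diet change was 1.56 ± 0.43 (edgeR adjusted p = 0.00836). It moved with the library series: the 3 WT CDAHFD libraries of the 9000 series held 114 to 154 CPM and the 3 of the 11000 series 32.1 to 51.9 CPM. Within the 11000 series the estimate was 0.41 ± 0.37 (adjusted p = 0.506), within the 9000 series, with 1 chow library, 2.11 ± 0.61 (adjusted p = 0.127), and without WT CDAHFD replicates 2 and 3 it was 0.95 ± 0.42 (adjusted p = 0.118). Hom livers gave 0.69 ± 0.40 against WT chow and were not called (edgeR adjusted p = 0.215). Their estimate was 0.71 within the 11000 series and 0.65 within the 9000 series, with 1 chow library. Het livers rose by 1.51 ± 0.42 (edgeR adjusted p = 0.00734).

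The ratio of Orm2 to Orm1 inside each library was 0.144 ± 0.075 in WT CDAHFD livers and 0.0458 ± 0.0114 in WT chow livers (SD). It was chosen after the values were seen, with Orm2 called on the diet and Orm1 not. The difference of 1.51 in the log2 ratio passed (two-sided exact permutation p = 0.00649, n = 6 and 5; adjusted p = 0.039 over 12 ratio tests). Within the 11000 series it was 0.83 (exact permutation p = 0.0286, n = 3 and 4; adjusted p = 0.114). Both genes share reads with each other: 27.5% of the 31-base words of Orm1 and 34.1% of those of Orm2 occur in another gene. Summed with Orm3, the family gave a log2 fold change of -0.05 (edgeR adjusted p = 0.846) for the diet, and Orm1 held most of its counts. Orm3, the rarest of the 3, had 2.38 to 9.44 CPM in Hom livers, 3.18 to 22.9 CPM in Het livers, 3.08 to 12.96 CPM in WT CDAHFD livers and 2.38 to 10.6 CPM in WT chow livers. Its diet estimate of 0.24 ± 0.47 did not pass (edgeR adjusted p = 0.742), and it was -0.25 within the 11000 series. The Orm2 window is shown beside that of Orm3 because the neighbours, within 6.5 kb on chromosome 4, had 85.5% identical columns. Capitals mark the same motifs.
Orm2: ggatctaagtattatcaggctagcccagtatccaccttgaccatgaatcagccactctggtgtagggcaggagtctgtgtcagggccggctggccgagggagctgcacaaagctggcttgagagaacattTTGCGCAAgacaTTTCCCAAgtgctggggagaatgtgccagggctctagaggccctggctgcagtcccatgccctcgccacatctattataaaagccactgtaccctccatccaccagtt
Orm3: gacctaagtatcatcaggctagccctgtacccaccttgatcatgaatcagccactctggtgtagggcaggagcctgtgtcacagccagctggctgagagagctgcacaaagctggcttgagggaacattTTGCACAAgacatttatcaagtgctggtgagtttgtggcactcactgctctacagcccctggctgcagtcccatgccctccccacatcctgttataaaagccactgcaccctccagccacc
These windows lie at chr4:63362199-63362448 and chr4:63355908-63356157, both on the plus strand. Orm2 held 2 C/EBP-type matches, the palindrome TTGCGCAA and TTTCCCAA, and TTTCCCAA also stands in the Saa1 window. Over the 8 genes with a window, 7 held a C/EBP-type match, against 36.8% of all windows. An NF-kB-type match stood in 4 of the 8, against 45.8% of all windows. TTCNNNGAA, a STAT-type motif, stood in the Apcs and Steap4 windows, 2 of the 8, against 7.0% of all windows.

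Apcs (ENSMUSG00000026542.7) encodes serum amyloid P component, a pentraxin and a main acute phase protein of mice. It had 151 to 273 CPM in Hom livers (median 203), 140.3 to 290.1 CPM in Het livers (median 180) and 166 to 234 CPM in WT CDAHFD livers (median 172). WT chow livers held 97.4, 166, 153, 151 and 116 CPM. The WT CDAHFD livers lay just above the chow livers, 166.2 against 165.8 CPM at the closest. The diet estimate of 0.43 ± 0.17 did not pass with edgeR (adjusted p = 0.0657) and passed with DESeq2 (adjusted p = 0.0484) and voom (adjusted p = 0.0489). It was 0.51 and passed without WT chow replicate 2 (adjusted p = 0.0478), and it also passed without Het replicate 1 or 4. Apcs rose in Hom livers against WT chow (0.58 ± 0.16, edgeR adjusted p = 0.0118) and in Het livers against WT chow (0.51 ± 0.17, edgeR adjusted p = 0.0184). The Het call was lost without WT chow replicate 1 (0.41), WT chow replicate 5 (0.46) or Het replicate 1 (0.39). In the 11000 series alone the estimate was 0.43 for Hom (adjusted p = 0.0698) and 0.22 for Het livers (adjusted p = 0.365).

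Steap4 (ENSMUSG00000012428.10) encodes a metalloreductase of iron and copper that inflammation induces. It lay at 112 to 207 CPM in Hom livers (median 134), 129 to 276 CPM in Het livers (median 167) and 98.7 to 255 CPM in WT CDAHFD livers (median 138). The chow livers held 59.8, 48.3, 66.5, 44.2 and 38.1 CPM, all lower than any CDAHFD liver. The diet change was 1.61 ± 0.23 on the log2 scale (edgeR adjusted p = 1.53e-05), or 3.05-fold. Against WT chow it was 1.45 ± 0.22 in Hom livers and 1.85 ± 0.23 in Het livers.

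Per length, haptoglobin and hemopexin stood far above the rest. As a mean level per kb of the principal transcript in WT CDAHFD livers, Hp held 3567 CPM per kb, Hpx 3334 and Orm1 753. Saa1 followed at 266 CPM per kb, Lcn2 at 196, Apcs at 189, Saa2 at 180 and Orm2 at 115. Steap4 at 49.7 and Saa3 at 36.8 CPM per kb came last. Between neighbours in this order, the steps from Hpx to Orm1 and from Orm1 to Saa1 exceeded the SD of either gene over livers, and the other steps did not exceed the larger SD. In WT chow livers Orm1 held 865 CPM per kb, while Saa1 held 24.8, Saa2 14.5, Lcn2 11.5 and Saa3 5.76. The coefficient of variation among WT CDAHFD livers was 66.8% for Saa2, 63.4% for Orm2, 60.2% for Saa1 and 57.1% for Lcn2, against 17.3% for Hp and 13.4% for Hpx.

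Each CDAHFD group can be set against the same WT chow livers, which the 3 comparisons share. Hom livers gave 8 of 10 genes higher (of all genes 23.1% were called, 12.3% higher and 10.8% lower), and Het livers gave 9 of 10 higher (of all genes 37.2% were called, 19.3% higher and 17.9% lower). The median log2 fold change of the 10 genes was 1.09 for Hom, 1.68 for Het and 1.58 for WT CDAHFD livers, and the median of all genes was within 0.01 of 0 in each. Scaling by library totals alone moved the median of all genes to 0.20, 0.19 and 0.22, so small changes depend on the scaling. Under that scaling 88.4% of calls in the WT diet comparison were higher, against 54.8% with TMM. With the CDAHFD libraries of the 9000 series left out, an alternative added after the values were seen, 8 genes for Hom and 8 for Het were called higher, and 6 for WT CDAHFD. That fit tested 17223 genes and called 3298 for Hom (1822 higher), 4685 for Het (2492 higher) and 2451 for WT CDAHFD (1401 higher). In that setting Apcs dropped out of the Het comparison, Hp and Orm2 out of the WT comparison, and Orm1 was called lower in WT CDAHFD (-0.46 ± 0.14, edgeR adjusted p = 0.0346) and Het livers (-0.36 ± 0.13, edgeR adjusted p = 0.0447).

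**Figure D2:**
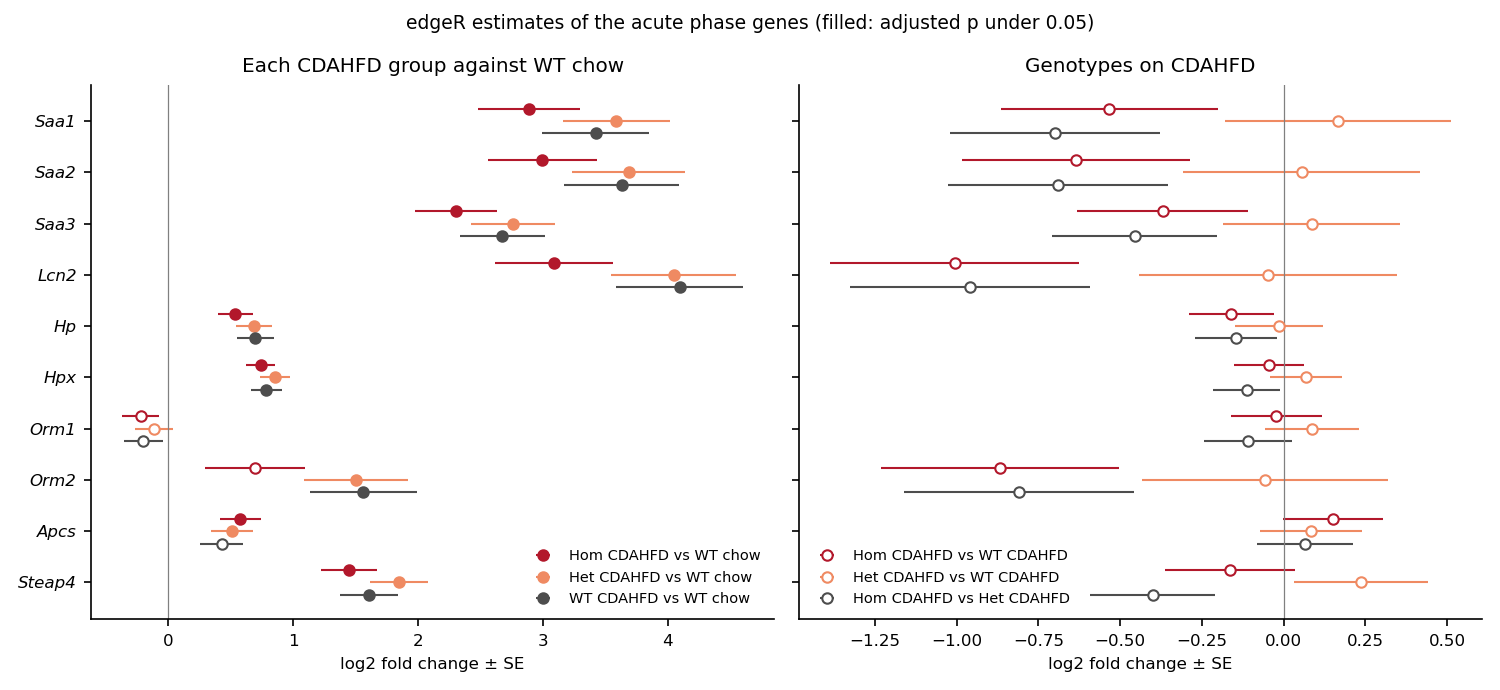
edgeR log2 fold changes ± SE (horizontal axes) of the 10 acute phase genes. The left panel sets the Hom, Het and WT CDAHFD groups against WT chow, the right panel compares genotypes on CDAHFD, and filled points have an adjusted p under 0.05. Filled points fill the left panel except for Orm1, Orm2 in Hom livers and Apcs in WT livers, and the right panel has none.

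Loss of Mtarc1 was compared within the diet. Between Hom and WT CDAHFD livers edgeR called 1 gene of 17104 (0.00585%), Mtarc1 itself, and 0 of the 10 acute phase genes. At an unadjusted p under 0.05 stood 2 of the 10, Lcn2 and Orm2, and 1705 of all genes, and DESeq2 and voom also called 0 of the 10. The estimate for Lcn2 was -1.01 ± 0.38 (edgeR adjusted p = 0.347), with group means of 89.2 ± 45.6 CPM in Hom livers and 179 ± 102 CPM in WT CDAHFD livers (SD). For Orm2 it was -0.87 ± 0.36 (edgeR adjusted p = 0.415), with means of 48.9 ± 18.7 and 89.0 ± 56.4 CPM for Hom and WT CDAHFD livers. Saa2 stood at -0.63 ± 0.35, Saa1 at -0.53 ± 0.33 and Saa3 at -0.37 ± 0.26, and the remaining genes lay between -0.16 and 0.15. In every one of the 10 genes the Hom and WT CDAHFD livers overlapped.

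These estimates differed between the library series, and that difference was not tested. Within the 9000 series (2 Hom and 3 WT CDAHFD libraries) Lcn2 stood at -1.46 ± 0.28 and Orm2 at -1.46 ± 0.44, with adjusted p-values of 0.269 and 0.398. Within the 11000 series (6 Hom and 3 WT CDAHFD libraries) the same genes stood at -0.09 ± 0.46 and 0.30 ± 0.35, and Saa3 at 0.30 ± 0.30. Lcn2 held 91.7 and 100.3 CPM in the Hom and 221 to 309 CPM in the WT CDAHFD livers of the 9000 series. In the 11000 series it held 45.0 to 186 CPM in Hom livers and 66.1 to 142 CPM in WT CDAHFD livers. Without WT CDAHFD replicates 2 and 3 the Lcn2 estimate was -0.48 ± 0.41.

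Between Het and WT CDAHFD livers the estimates ran from -0.06 to 0.24 over the 10 genes, with SEs of 0.11 to 0.39. None was called by edgeR, DESeq2 or voom, and 0 of the 10 had an unadjusted p under 0.05, while edgeR called 0 genes of 17104 (0%) and 1444 had an unadjusted p under 0.05. Between Hom and Het livers edgeR called 1 gene in all (0.00585%), again Mtarc1. Estimates were negative for 9 of the 10 acute phase genes, with a median of -0.43, and 0 were called by edgeR, DESeq2 or voom. Of all genes, 49.7% had an estimate above 0, and the median of all genes was 0. Many of the 10 genes were correlated over livers, as given below, so their signs are not separate observations. An unadjusted p under 0.05 was reached by 4 of the 10, beside 1219 of all 17104 genes. They were Lcn2 (-0.96 ± 0.37), Orm2 (-0.81 ± 0.35), Saa1 (-0.70 ± 0.32) and Steap4 (-0.40 ± 0.19), with edgeR adjusted p-values from 0.588 to 0.700. Within the 11000 series the same 4 stood at -0.68, -0.48, -0.39 and -0.21. Within the 9000 series (2 Hom and 3 Het libraries) they stood at -1.19, -1.13, -0.78 and -0.71. The difference between the series was not tested.

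Livers that held more of one gene often held more of another. Log2 CPM deviations from the group mean were correlated over the 21 CDAHFD libraries for all 45 pairs of the 10 genes, with permutation tests and adjustment over the 45. An adjusted p under 0.05 was reached by 32 pairs, all positive, and by 17 pairs once the library series was also removed. No such count was made for pairs of other genes, so these counts have no background to be read against. Saa1 and Saa2 had r = 0.990 (rho = 0.983, permutation p = 1e-05 for both, the smallest 100000 permutations allow; adjusted p = 0.000112), and 0.984 within the series and without the 2 farthest livers. Reads of Saa1 and Saa2 are hard to assign, as given above, and the part of this in their r was not tested. Saa3 with Lcn2 had r = 0.908 (rho = 0.894, adjusted permutation p = 0.000112 for both), 0.884 without the 2 farthest livers and 0.855 within the series. Lcn2 with Orm2 had r = 0.918 (rho = 0.914, adjusted permutation p = 0.000112 for both), 0.891 without the 2 farthest livers and 0.855 within the series. Hp joined these, with r = 0.862 to Saa3 (rho = 0.883, adjusted permutation p = 0.000112 for both; 0.809 without the 2 farthest livers and 0.819 within the series).

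Saa1 went with Steap4 (r = 0.780, rho = 0.700, adjusted permutation p = 0.0009 and 0.00479; 0.728 without the 2 farthest livers and 0.849 within the series). Saa1 also went with Hpx (r = 0.770, rho = 0.797, adjusted permutation p = 0.0014 and 0.000579), at 0.697 without the 2 farthest livers and 0.663 within the series. Apcs passed with none of the other genes, with r from -0.03 to 0.37. Within the series its r was -0.41 with Lcn2 and -0.40 with Orm2, and these did not pass (adjusted permutation p = 0.214 and 0.25); over the 13 libraries of the 11000 series alone they were -0.67 and -0.87. All values come from the same 21 libraries and share their scaling.

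**Figure D3:**
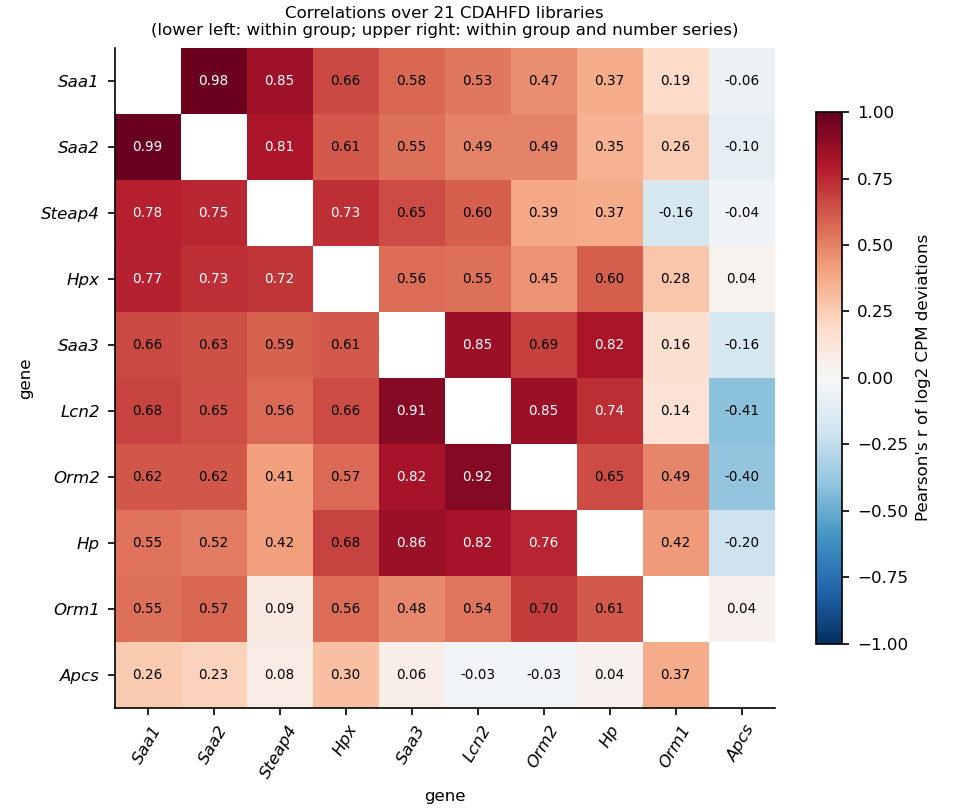
Pearson's r between log2 CPM deviations of pairs of the 10 acute phase genes over the 21 CDAHFD libraries (colour and numbers; both axes are genes). Deviations are from the group mean below the diagonal and from the mean of group and library series above it. The Saa1 and Saa2 pair is darkest on both sides of the diagonal. The Saa3, Lcn2, Orm2 and Hp block and the cells of Steap4 with Saa1 and Saa2 are also dark, and the Apcs row and column are mostly pale.

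Outside the 10 genes, the likeness of each gene's pattern was ranked over 13929 genes with a mean of at least 1 CPM by r of the same deviations. The highest for Saa1 and Saa2 were Aldh1a1, a retinaldehyde dehydrogenase (r = 0.783 and 0.807), and Slc22a29 (0.773 and 0.794). For Saa3 they were Clec4d, a myeloid C-type lectin receptor (0.852), and Pla2g7, which encodes a lipoprotein-associated phospholipase (0.845). For Lcn2 they were Il1rn, the interleukin-1 receptor antagonist (0.871), and Tmem176b (0.847), and for Hp Tmem176a (0.808) and Gm47483 (0.802). For Hpx, Clu, which encodes the chaperone clusterin, had r = 0.868. Orm1 was most like Orm3 (0.942), with which it can share reads, and Prr13 (0.890). Orm2 was most like Arhgap25 (0.842) and the sugar transporter gene Slc2a6 (0.841). Apcs was most like Cyp2c69 (0.813) and Rsph4a (0.811), and Steap4 most like the haem transporter gene Slc48a1 (0.849) and Prkra (0.836). These are the highest of many values and are a description of 21 livers.

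The wider acute phase programme did not move as one on the diet. Over all 17104 genes, edgeR called 27.1% between WT CDAHFD and WT chow livers, 14.8% higher and 12.2% lower. This is the background of the list counts for this comparison here and below. Of 16 other positive acute phase proteins edgeR called 4, near that share, 2 higher and 2 lower, with a median log2 fold change of -0.02. The higher ones were Il1rn (2.34 ± 0.38, edgeR adjusted p = 6.03e-05) and Serpina3n, a serine protease inhibitor (1.04 ± 0.26, adjusted p = 0.00399). The lower ones were Itih3, a hyaluronan-binding inhibitor chain (-0.80 ± 0.16), and Fgb, the fibrinogen beta chain (-0.59 ± 0.16), and the Fgb call was lost within the 11000 series (-0.53, adjusted p = 0.0795). Of 8 negative acute phase proteins 4 were lower and 0 higher. They were Fetub, a fetuin (-0.73 ± 0.14), Ttr, transthyretin (-0.64 ± 0.13), Alb, albumin (-0.53 ± 0.15), and Apoa1, the main protein of high-density lipoprotein (-0.45 ± 0.15). Within the 11000 series the estimates of Ttr (-0.53), Alb (-0.40) and Apoa1 (-0.42) did not pass. Scaled by library totals alone, Alb (-0.30, adjusted p = 0.0544) and Apoa1 (-0.23, adjusted p = 0.212) did not pass either, and the Apoa1 call was lost in 5 of 26 fits that left out 1 library.

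**Figure D4:**
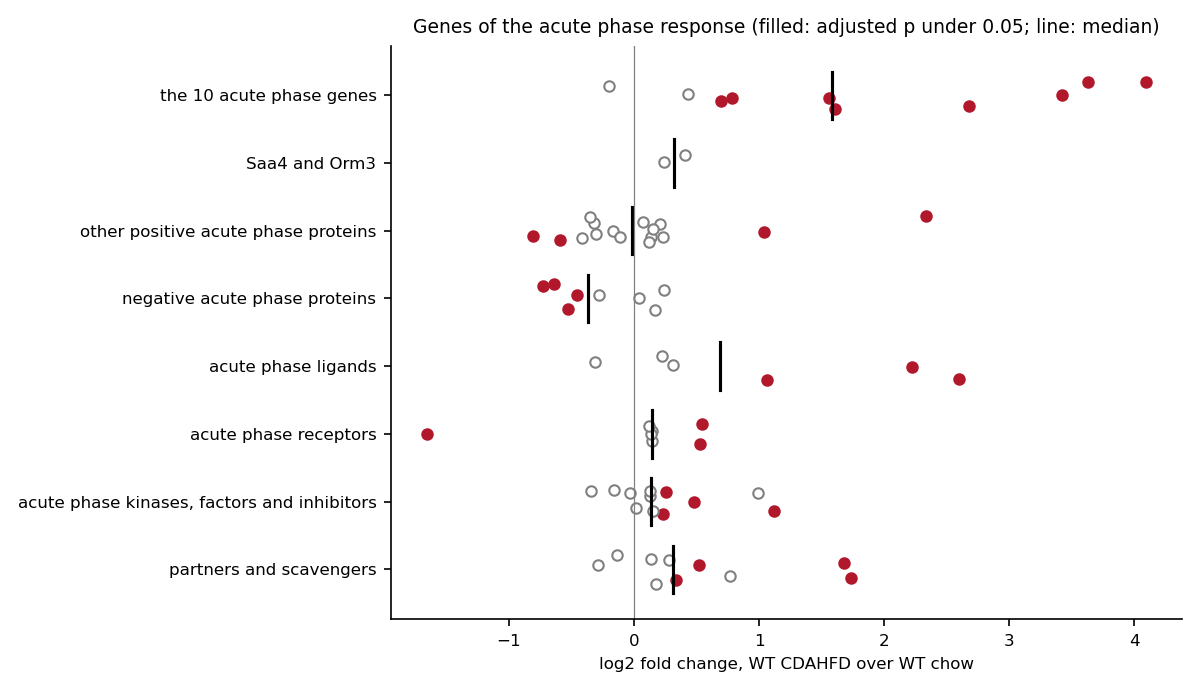
edgeR log2 fold change between WT CDAHFD and WT chow livers (horizontal axis) for the measured genes of each list of the acute phase response (rows). Filled points have an adjusted p under 0.05, open points do not, and the black line is the median of the row. The 10 acute phase genes have a median of 1.58, while the other positive acute phase proteins centre at -0.02.

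Upstream, 6 of 9 ligands passed the filter, and Il6, Osm and Il11 did not, with at most 0.333 CPM in any library. Of the 6, 3 rose: Lif, an interleukin-6 family cytokine (2.60 ± 0.62, edgeR adjusted p = 0.00232), Tnf (2.23 ± 0.56, adjusted p = 0.00407) and Il1b (1.07 ± 0.38, adjusted p = 0.038). Their levels were low, at 0.744 CPM for Lif, 2.13 CPM for Tnf and 3.83 CPM for Il1b in WT CDAHFD livers and 0.118, 0.459 and 1.82 CPM in WT chow livers. None of the 3 passed within the 11000 series, where the estimates were 1.99 for Lif (adjusted p = 0.101), 1.21 for Tnf (adjusted p = 0.251) and 1.09 for Il1b (adjusted p = 0.103). Of 7 receptors 2 rose and 1 fell. The receptor for leukaemia inhibitory factor, Lifr, fell by 1.65 ± 0.26 on the log2 scale (edgeR adjusted p = 4.01e-05). Tnfrsf1a, a tumour necrosis factor receptor, rose by 0.53 ± 0.11 and Osmr, the oncostatin M receptor, by 0.55 ± 0.21, just past the threshold (edgeR adjusted p = 0.0496). The Osmr call was lost in 18 of 26 fits that left out 1 library and within the 11000 series (0.29, adjusted p = 0.476).

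Of 12 kinases, factors and inhibitors, 4 rose and 0 fell between WT CDAHFD and WT chow livers. Cebpd, a C/EBP factor of the acute phase, rose by 1.12 ± 0.22 (edgeR adjusted p = 0.000494), with 11.3 CPM in WT CDAHFD and 5.21 CPM in WT chow livers. Nfkbia, an NF-kB inhibitor and target, rose by 0.48 ± 0.17, the kinase gene Jak1 by 0.26 ± 0.08 and Nfkb1 by 0.24 ± 0.09. The Nfkb1 call was marginal (edgeR adjusted p = 0.0496). Within the 11000 series Nfkbia (0.43, adjusted p = 0.202), Jak1 (0.28, adjusted p = 0.108) and Nfkb1 (0.09, adjusted p = 0.634) did not pass, and leaving out 1 library ended the Nfkbia call in 6 and the Nfkb1 call in 18 of 26 fits. Between Hom and WT CDAHFD livers Cebpd stood at -0.75 ± 0.19, which DESeq2 called (adjusted p = 0.0484) and edgeR did not (adjusted p = 0.181). Partners and scavengers of the acute phase proteins showed 4 higher of 10. They were Hmox1, which degrades haem (1.68 ± 0.17), Cd36, a scavenger receptor (1.74 ± 0.24), Scarb1, the receptor for high-density lipoprotein (0.52 ± 0.19), and Slc40a1, the iron exporter (0.34 ± 0.12). Within the 11000 series Scarb1 (0.68, adjusted p = 0.0684) and Slc40a1 (0.41, adjusted p = 0.0818) did not pass, with estimates no smaller than over all libraries.

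In the genotype comparisons on CDAHFD edgeR called 0 of the 88 measured genes of these lists and of the cell marker lists, for Hom against WT CDAHFD, Het against WT CDAHFD and Hom against Het. At an unadjusted p under 0.05 stood 17, 8 and 15 of the 88, in that order, beside 1705, 1444 and 1219 of all 17104 genes. DESeq2 called 4, 0 and 0 of them, and voom 0 in each. Beside Cebpd the 4 were the macrophage markers Trem2 (DESeq2 log2 fold change -1.02, adjusted p = 0.0323) and Gpnmb (-1.91, adjusted p = 0.0489) and the fibroblast marker Col3a1 (-0.81, adjusted p = 0.0296), all lower in Hom than in WT CDAHFD livers, and edgeR called none of these (adjusted p = 0.165 to 0.181). Their part in the Lcn2 and Saa estimates of that comparison was not tested.

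Markers of other liver cells moved with the diet beside these genes. Of 10 macrophage and Kupffer cell markers 8 were higher in WT CDAHFD than in WT chow livers, among them Trem2 (3.39 ± 0.33), Cd68 (1.84 ± 0.20), Ccr2 (2.36 ± 0.34) and Gpnmb (5.56 ± 0.80). Their summed level was 267 to 377 CPM in Hom livers, 322 to 491 CPM in Het livers, 331 to 525 CPM in WT CDAHFD livers and 194 to 321 CPM in WT chow livers. Of 10 neutrophil markers 4 passed the filter and 3 rose, Csf3r (1.05 ± 0.31), S100a9 (1.48 ± 0.51) and S100a8 (1.54 ± 0.54), and voom called 1 of the 4. None of the 3 passed within the 11000 series, with 0.48 for Csf3r (adjusted p = 0.41), 0.82 for S100a9 (adjusted p = 0.384) and 0.74 for S100a8 (adjusted p = 0.463), or without WT CDAHFD replicates 2 and 3. Leaving out 1 library ended the S100a9 call in 6 and the S100a8 call in 5 of 26 fits. Neutrophil marker sums were 6.88 to 16.5 CPM in Hom livers, 6.32 to 21.2 CPM in Het livers, 6.83 to 24.4 CPM in WT CDAHFD livers and 4.48 to 6.88 CPM in WT chow livers. Ly6g was at 0 in 21 and Camp in 17 of the 26 libraries. Adipocyte markers were near 0, with sums of at most 0.317 CPM and Lep at 0 in all 26 libraries.

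Stellate and fibroblast markers rose in 3 of 6, Col1a1 (2.60 ± 0.28), Col3a1 (2.12 ± 0.22) and Pdgfrb (0.74 ± 0.14). Their sums were 298 to 424 CPM in Hom livers, 358 to 513 CPM in Het livers, 401 to 778 CPM in WT CDAHFD livers and 221 to 301 CPM in WT chow livers. Bile duct markers changed in 0 of the 4 that passed, and the lowest p was that of Epcam (0.30 ± 0.22, edgeR adjusted p = 0.334). Hepatocyte markers fell in 4 of 6, Ttr, Apoc3 (-0.75 ± 0.17), Alb and Apoa1. Their sums were 63700 to 96100 CPM in Hom livers, 55800 to 84400 CPM in Het livers, 56600 to 89600 CPM in WT CDAHFD livers and 88200 to 113000 CPM in WT chow livers.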

How the data were processed

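Livers were extracted with the RNeasy Mini kit and libraries made with NEBNext Ultra II RNA, per the labels' protocols. The submitters' processing notes name cutadapt 3.5, Salmon 1.4.0 and the builds GRCm39 and mm39. The deposited table holds estimated counts per gene, 54.4% of the values above 0 being whole numbers; the sources used here do not give how transcripts were summed to genes or whether strand was used. Estimated counts were rounded to whole numbers. Of the identifiers, 92.5% matched GENCODE names on GRCm38. No column of the table was left unmapped.

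Genes were filtered with filterByExpr, which left 17104 of 55642. All 26 libraries were fitted in 1 model with group as the only term (R 4.3.3, edgeR 4.0.16, TMM, robust quasi-likelihood), with Benjamini-Hochberg adjustment over all genes tested and a threshold of 0.05. CPM values rest on TMM-scaled library sizes; TMM factors ran from 0.87 to 1.14. Log2 CPM for correlations used a prior count of 2. The fit was tested on simulated data. Ratios were tested by exact permutation and correlations by 100000 permutations within groups (Python 3.11.15, scipy 1.17.1, numpy 2.4.6). Alternatives were DESeq2 1.42.0, voom of limma 3.58.1, other scalings, no filter, a replicate block, the library series, single series, paralogs summed and each library left out.

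The 10 genes, the gene lists and the tests were chosen with earlier results of these data known, and the 12 ratio tests and the fit without the 9000 series CDAHFD libraries after the values were seen. Beside the 10 genes the text names Saa4, Orm3 and Mtarc1. It names up to 4 genes of each list with the lowest p in the wildtype diet comparison, and for a list with no call that of lowest p. It also names the 2 genes most like each of the 10, except 1 that is not reported here, and, chosen after the values were seen, the list genes that DESeq2 called and those at 0. Sequences are RefSeq promoters of GRCm38.p6. Within groups, none of 74 pairs of libraries agreed within sampling noise.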

Additional observations from a re-analysis of the deposited data

Results flagged for a closer look

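A single library stood apart from the rest of its group in 5 of the 40 combinations of the 10 genes and 4 groups, by Dixon's test at the 95% level, which chance flags in about 1 of 20 groups. WT CDAHFD replicate 3 held 352 CPM of Saa1 and 274 CPM of Saa2, while the other 5 livers of that group held 87.1 to 157 CPM and 64.6 to 106 CPM. Hom replicate 8 held 186 CPM of Lcn2, against 45.0 to 111 CPM in the other Hom livers. WT CDAHFD replicate 1 held 234 CPM of Apcs, against 166 to 187 CPM in the others. WT chow replicate 2 held 19.6 CPM of Orm2, against 31.5 to 34.0 CPM in the other chow livers.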

How the results depend on the processing

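The count of the 10 genes called between WT CDAHFD and WT chow was 8 to 9 with each library left out in turn, 8 between Hom and WT chow and 8 to 9 between Het and WT chow. With only the 9000 series and its 1 chow library the counts were 3, 1 and 1, with 418, 7 and 28 of all genes called. With only the 11000 series 2264 genes were called in the wildtype diet comparison. Of the 10 genes, Hp and Orm2 lost their calls there (edgeR adjusted p = 0.104 and 0.506). In that series Apcs lost its calls against WT chow in Hom livers (edgeR adjusted p = 0.0698) and Het livers (edgeR adjusted p = 0.365). Between Hom and WT CDAHFD livers the call of 1 gene became 61 with DESeq2, 2 with only the 9000 series and 1 to 4 with a library left out, the highest without WT CDAHFD replicate 4. DESeq2 called 2 genes between Het and WT CDAHFD and 17 between Hom and Het livers, where only the 9000 series gave 0. Correlated pairs fell to 17 once the library series was removed, and ranged from 24 to 33 with a library left out.

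Of 34 pairs of libraries with the same replicate number in different groups, 16 had a correlation over 0.1. The values ran from -0.37 to 0.32. Libraries with different numbers were not compared, so these values cannot settle whether replicate numbers pair the libraries. With the replicate block 2 genes were called between Hom and WT CDAHFD livers, 4464 in the wildtype diet comparison, and no call among the 10 genes changed.

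Signs turned for estimates that were not called. In the diet comparison Orm1 was 0.04 by library totals, and Orm3 was -0.13 with the series as covariate, -0.25 in the 11000 and -0.04 in the 9000 series. The sum of Orm1, Orm2 and Orm3 was -0.05 there, while Orm2 alone stayed positive, from 0.38 to 2.11 over 38 alternatives. Between Hom and WT CDAHFD the 11000 series gave Saa3 0.30, Hp 0.04, Hpx 0.03, Orm1 0.20, Orm2 0.30, Steap4 0.01 and the log2 ratio of Orm2 to Orm1 0.027. Without WT CDAHFD replicates 2 and 3 it was 0.07 for Saa3, 0.02 for Hpx, 0.07 for Orm1 and 0.02 for Steap4, and Orm1 was 0.03 with the block and 0.09 with the covariate. With a library left out, the Hom against WT CDAHFD estimates ran from -0.11 to 0.01 for Hpx, -0.08 to 0.05 for Orm1 and -0.27 to 0.03 for Steap4, and the Hom against Het estimates from -0.17 to 0.03 for Orm1 and -0.01 to 0.19 for Apcs. Between Hom and Het, Orm1 was 0.10 in the 11000 series and Apcs -0.01 in the 9000 series. Against WT chow, the sum of Orm1, Orm2 and Orm3 was -0.17 for Hom and 0.02 for Het livers. For Het livers Orm1 was 0.07 by library totals and 0.05 in the 9000 series. The cause was not tested.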
